A study of Danio rerio with 4 samples.

Results

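Chromatin modifiers and remodellers are the enzymes and complexes that place, remove or read chemical marks on histones and DNA, or that move nucleosomes. Their genes were examined in zebrafish embryos at 24 hours post fertilization carrying Tg(fli1a:egfp), in which regulatory sequence of the endothelial gene fli1a drives green fluorescent protein (GFP). Both fractions came from embryos of this strain, which were dissociated, fixed and sorted by fluorescence. The GFP-positive (GFP+) fraction is labelled as endothelial cells, and it was set against a GFP-negative (GFP-) fraction of non-endothelial cells, as the labels call them, with 2 RNA-seq libraries each. Members were the rows whose gene name begins with kdm, kmt, setd, chd, hdac, sirt, dnmt, tet, ezh, brd, kat or prmt and a digit, or with smarc, suz12, eed or ino80. This took 120 of the 31716 genes in the table.

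ATP-dependent remodellers of the SWI/SNF, ISWI, CHD and INO80 families slide, evict or exchange nucleosomes. Histone acetyltransferases and deacetylases set the acetylation that bromodomain proteins bind, and lysine methyltransferases and demethylases set marks found at active promoters, enhancers or repressed genes. Polycomb repressive complex 2 (PRC2) writes a methyl mark of repressed developmental genes. DNA methyltransferases add methyl groups to cytosine and TET enzymes oxidise them. In zebrafish, kdm1a, tet2 with tet3, and dnmt4 have been linked to the formation of blood from endothelial precursors.

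The table gives 1 level per gene and fraction, in FPKM (mapped fragments per kilobase of transcript, scaled to library size), so levels are per length and can be set side by side between genes. Single libraries have no values of their own in the table used, so no level carries a standard deviation, and the depth is unknown. Nothing in the labels ties each library to its own clutch of embryos, so the deposited p-values may measure technical spread only. A gene is called when the q-value (a p-value adjusted over all tested genes) in the authors' deposited Cuffdiff table is under 0.05. As a check of the sort, fli1a stood at 187 FPKM in the GFP-positive and 4.71 in the GFP-negative fraction. Of 12 endothelial markers, 9 were called higher and 0 lower, with summed levels of 929 FPKM in the GFP-positive and 25.4 in the GFP-negative fraction. Erythroid markers (8 of 9 called higher, summed 79726 FPKM in GFP+ against 998 in GFP- cells) and myeloid markers (3 of 5 tested called higher, summed 255 FPKM in GFP+ against 2.90 in GFP- cells) were also higher in GFP-positive cells. Among myeloid markers, cxcr3.2, mpeg1, both lcp1 rows and 1 of 2 ptpn6 rows were listed at 0 in GFP-negative cells. Neural markers (8 of 10 called lower, summed 159 FPKM in GFP+ against 1827 in GFP- cells), skeletal muscle markers (7 of 9 lower, 275 FPKM in GFP+ against 1670 in GFP- cells) and epidermal markers (5 of 6 lower, 206 FPKM in GFP+ against 1245 in GFP- cells) were lower in GFP-positive cells, and none of them was at 0. The part that these cell types play in the values below was not tested. In such mixtures, fewer cells of a type and less RNA per cell cannot be told apart.

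Few chromatin genes were called different between the fractions. Of the 120 members, 70 were tested in the authors' deposited table. Of these, 0 were called higher, 2 were called lower and 68 did not pass. The called share is 2.86%, against 14.3% of all 7299 tested genes. Of all tested genes, 7.18% were called higher and 7.15% were called lower. The 2 called members were the DNA methyltransferase gene dnmt3ab and the DNA demethylation gene tet2. At an unadjusted p under 0.05 in the authors' deposited table there were 9 members, 2 higher and 7 lower, among 70, against 23.9% of all tested genes. By direction, 12.1% of all tested genes were higher and 11.8% were lower at that p. The BRD, KAT, KMT2, SETD, PRC2, PRMT, ISWI and INO80 families held 0 members at that level. The smallest fold among called genes above 0 in both fractions was 2.07, so smaller differences passed for no gene of the table, and a member that did not pass is not shown to be equal.

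Members leaned towards the GFP-negative fraction by a small amount. The level was lower in GFP-positive cells for 47 of 70 tested members, or 67.1%, against 46.9% of all tested genes. The ratio used here is log2((GFP-positive FPKM + 1)/(GFP-negative FPKM + 1)), which understates differences of low genes. Its median was -0.29 over the tested members and 0.05 over all tested genes. The middle 50% of members lay between -0.60 and 0.10, and the whole range ran from -1.68 for dnmt3ab to 0.96 for the deacetylase gene sirt2. An absolute ratio of at least 1 was found for 9 of 70 members, or 12.9%, against 26.2% of all tested genes. Within 1.5-fold lay 68.6% of members and 58.4% of all tested genes. With a minimum of 10 FPKM in the higher fraction, a choice made after the values were seen, the shares past 2-fold were 12.7% for members and 26.1% for all.

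**Figure D1:**
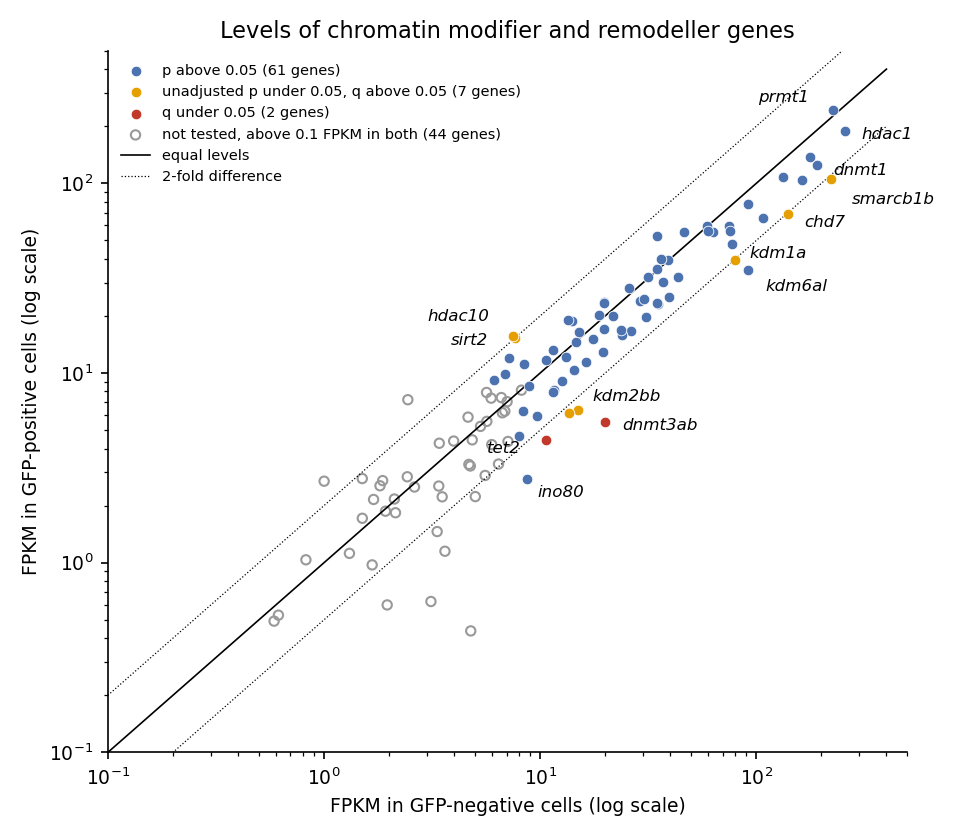
Level of each chromatin gene in GFP-positive cells (vertical axis, FPKM, log scale) against GFP-negative cells (horizontal axis, FPKM, log scale), with 1 point per gene. Filled points were tested, open points were not, and genes at or under 0.1 FPKM in either fraction are not drawn; most tested points lie within the dotted 2-fold lines, and dnmt3ab and tet2, in red, lie below them.

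The 2 called members were 1 of 6 tested DNMT genes and 1 of 2 tested TET genes, against 14.3% of all tested genes called in either direction and 7.15% called lower. The de novo methyltransferase gene dnmt3ab (ENSDARG00000015566; chromosome 17, 37105236 to 37222477 in the Zv9 build) had 5.53 FPKM in the GFP-positive and 19.98 in the GFP-negative fraction. It was 3.62-fold lower in GFP-positive cells, with q = 0.000958 in the authors' deposited table, the smallest q in the table. Other genes share this q, among them fli1a and the markers kdrl and gfap, so it does not rank dnmt3ab above them. Its copy dnmt3aa was not tested, at 0.599 FPKM in the GFP-positive and 1.96 in the GFP-negative fraction. The gene tet2 (ENSDARG00000076928; chromosome 1, 25256873 to 25269817), whose enzyme starts the removal of cytosine methylation, had 4.42 FPKM in GFP+ against 10.6 in GFP- cells. It was 2.40-fold lower in GFP-positive cells, with q = 0.0419 in the authors' deposited table, and did not pass a threshold of 0.01. The other tested TET gene, tet3, was the most abundant of the family, with 23.5 FPKM in the GFP-positive and 34.9 in the GFP-negative fraction (q = 0.421 in the authors' deposited table). It made up 78.9% of the summed TET level in the GFP-positive and 73.6% in the GFP-negative fraction. The third gene, tet1, was not tested, at 1.87 FPKM in GFP+ against 1.93 in GFP- cells.

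The other methyltransferase genes did not pass. The maintenance enzyme gene dnmt1, which copies methylation after replication, had 125 FPKM in the GFP-positive and 191 in the GFP-negative fraction (q = 0.694 in the authors' deposited table). The DNMT3B-type genes dnmt5, dnmt3 and dnmt4 lie side by side on chromosome 23, between 17118766 and 17272078. Of these, dnmt3 had 55.4 FPKM in GFP+ against 62.9 in GFP- cells, dnmt5 had 28.1 FPKM in GFP+ against 25.7 in GFP- cells and dnmt4 had 9.86 FPKM in GFP+ against 6.91 in GFP- cells. Their q-values in the authors' deposited table were 0.883, 0.954 and 0.557. The DNMT3B-type gene dnmt3b, on chromosome 8, had 24.1 FPKM in GFP+ against 29.0 in GFP- cells (q = 0.815 in the authors' deposited table). The 6 de novo genes together summed to 124 FPKM in the GFP-positive and 146 in the GFP-negative fraction. The share of dnmt3ab in this sum was 4.47% in the GFP-positive and 13.7% in the GFP-negative fraction. The largest contributor, dnmt3, held 44.8% of the sum in the GFP-positive and 43.0% in the GFP-negative fraction. The loci of dnmt1, dnmt3b, dnmt4 and dnmt5 also hold other rows, so these values and shares depend on how reads were divided. The median log2 ratio of all tested DNMT genes was -0.22. With only dnmt3 and dnmt3ab, which are alone in their locus, it was -0.93.

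SWI/SNF remodellers, which open chromatin at promoters and enhancers, had lower values in GFP-positive cells in 5 of 6 tested members, and none was called. Their median ratio was -0.52 on the log2 scale. Among all tested genes, 46.9% had a lower level in GFP-positive cells and 14.3% were called. With 6 genes, the absence of a call does not set the family apart. The ATPase gene smarca4 had 56.4 FPKM in the GFP-positive and 75.3 in the GFP-negative fraction (q = 0.593 in the authors' deposited table), and supplied 95.7% of the summed level of both ATPase genes in the GFP-positive and 97.6% in the GFP-negative fraction. The alternative ATPase gene smarca2 was not tested, at 2.55 FPKM in GFP+ against 1.82 in GFP- cells. The core subunit gene smarcb1b had 105 FPKM in GFP+ against 221 in GFP- cells, with an unadjusted p of 0.0109 and q = 0.0685 in the authors' deposited table. Its copy smarcb1a had 35.5 FPKM in GFP+ against 34.7 in GFP- cells (q = 0.982 in the authors' deposited table). Of the summed smarcb1 level, smarcb1b made up 74.8% in the GFP-positive and 86.4% in the GFP-negative fraction. The subunit gene smarce1 had 104 FPKM in GFP+ against 163 in GFP- cells, smarcd1 had 137.6 FPKM in GFP+ against 177 in GFP- cells and smarcc1a had 19.8 FPKM in GFP+ against 31.0 in GFP- cells, with q from 0.340 to 0.684 in the authors' deposited table.

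Alternative smarcd subunits, which vary the complex between tissues, were low and not tested. The muscle and heart subunit gene smarcd3a had 0.437 FPKM in the GFP-positive and 4.78 in the GFP-negative fraction, and smarcd3b had 4.36 FPKM in GFP+ against 7.10 in GFP- cells. The gene smarcd2, which supports granulocyte formation in mouse and human, had 7.23 FPKM in GFP+ against 2.44 in GFP- cells. Against these, smarcd1 supplied 92.0% of the summed smarcd level in the GFP-positive and 92.5% in the GFP-negative fraction. Of the remaining members, smarcc1b had 6.30 FPKM in GFP+ against 6.87 in GFP- cells and smarcc2 had 1.83 FPKM in GFP+ against 2.14 in GFP- cells, also without a test.

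Among other remodellers, chd7 had the largest difference of the CHD genes. It encodes the remodeller mutated in human CHARGE syndrome and acts in neural crest, and had 68.8 FPKM in the GFP-positive and 140 in the GFP-negative fraction. The 2.04-fold lower level did not pass (unadjusted p = 0.0234, q = 0.121 in the authors' deposited table). Its relative chd9 had the opposite direction, at 9.20 FPKM in GFP+ against 6.13 in GFP- cells (q = 0.404 in the authors' deposited table), and chd2 had 15.2 FPKM in GFP+ against 17.6 in GFP- cells. The NuRD ATPase genes chd4a and chd4b had 30.0 FPKM in GFP+ against 36.9 in GFP- cells and 32.02 FPKM in GFP+ against 43.4 in GFP- cells. The other NuRD ATPase genes, chd3 and chd5, were under 1 FPKM in both fractions. The ISWI ATPase gene smarca5 had 47.8 FPKM in GFP+ against 77.1 in GFP- cells (q = 0.288 in the authors' deposited table), while its copy smarca1, not tested, had 2.69 FPKM in GFP+ against 1.002 in GFP- cells. The nucleosome remodeller gene smarcad1 had 31.98 FPKM in GFP+ against 31.4 in GFP- cells. Of 6 INO80 complex genes only ino80 and ino80c were tested. The ATPase gene ino80 had 2.78 FPKM in GFP+ against 8.69 in GFP- cells, a 3.13-fold difference that did not pass (q = 0.733 in the authors' deposited table). It shares its Cuffdiff locus with another gene, so its reads may be divided between them. The subunit gene ino80c had 17.0 FPKM in GFP+ against 19.7 in GFP- cells.

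Deacetylase genes had values on both sides of equal levels, without a call. Of the 8 tested deacetylase genes, 0 were called, 4 had a higher level in the GFP-positive fraction and 4 a lower one. This is near all tested genes, of which 46.9% had a lower level in that fraction and 14.3% were called. The class I gene hdac1 was the most abundant deacetylase, with 189 FPKM in the GFP-positive and 257 in the GFP-negative fraction (q = 0.563 in the authors' deposited table). It supplied 77.1% of the summed class I level in the GFP-positive and 83.4% in the GFP-negative fraction. The other class I genes, hdac3 of the NCoR complex and hdac8, had 39.7 FPKM in GFP+ against 36.2 in GFP- cells and 16.4 FPKM in GFP+ against 15.1 in GFP- cells. Among tested members, both with the largest positive ratios on the log2(FPKM + 1) scale were deacetylase genes whose enzymes act largely outside the nucleus. The untested smarcd2 had a larger ratio. The cytoplasmic deacetylase gene sirt2 had 15.6 FPKM in the GFP-positive and 7.53 in the GFP-negative fraction, a 2.07-fold higher level that did not pass (unadjusted p = 0.0439, q = 0.190 in the authors' deposited table). The polyamine deacetylase gene hdac10 had 15.4 FPKM in GFP+ against 7.65 in GFP- cells and was 2.01-fold higher, with an unadjusted p of 0.0405 and q = 0.179 in the authors' deposited table. The nuclear sirtuin genes sirt1 and sirt6 had 8.58 FPKM in GFP+ against 8.85 in GFP- cells and 12.8 FPKM in GFP+ against 19.6 in GFP- cells. The class IIa gene hdac4 had 9.09 FPKM in GFP+ against 12.6 in GFP- cells.

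**Figure D2:**
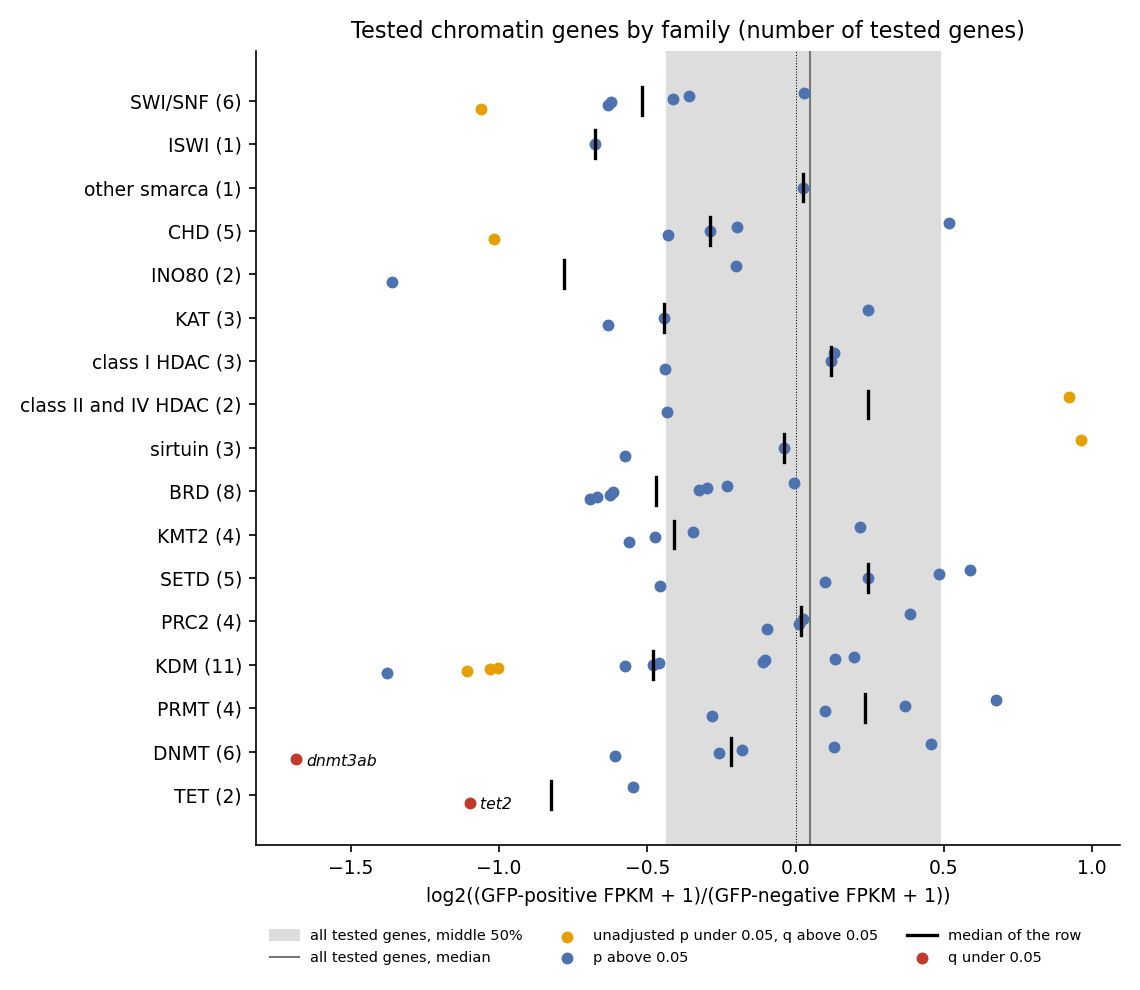
Ratio of GFP-positive to GFP-negative level on the log2(FPKM + 1) scale (horizontal axis) for the 70 tested genes, 1 point per gene, by family (rows, with the number tested). Black bars are family medians, and the grey band and line are the middle 50% and the median of all tested genes; the 8 BRD points all lie left of 0, the 4 PRC2 points lie close to it, and dnmt3ab and tet2 carry the 2 calls.

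Bromodomain genes, the readers of acetylation, had lower values in GFP-positive cells in 8 of 8 tested members, with 0 called and a median log2 ratio of -0.47. Among all tested genes, 46.9% had a lower level in GFP-positive cells and 14.3% were called. Most of the bromodomain level came from the BET genes, whose proteins recruit the transcription elongation machinery. The BET gene brd3a had 109 FPKM in the GFP-positive and 134 in the GFP-negative fraction, brd2a had 77.6 FPKM in GFP+ against 91.1 in GFP- cells and brd3b had 59.4 FPKM in GFP+ against 74.7 in GFP- cells. Differences larger than in these 3 genes were found outside the BET group. The gene brd8, of an acetyltransferase complex, had 65.8 FPKM in GFP+ against 107 in GFP- cells (q = 0.561 in the authors' deposited table). The SWI/SNF subunit genes brd7 and brd9 had 25.3 FPKM in GFP+ against 39.6 in GFP- cells and 4.67 FPKM in GFP+ against 8.02 in GFP- cells, and brd1b, a partner of acetyltransferases, had 5.97 FPKM in GFP+ against 9.68 in GFP- cells. Of the acetyltransferase genes themselves, kat8 had 16.7 FPKM in GFP+ against 26.4 in GFP- cells, kat6a had 10.3 FPKM in GFP+ against 14.4 in GFP- cells and kat7 had 23.6 FPKM in GFP+ against 19.8 in GFP- cells, with q from 0.412 to 0.794 in the authors' deposited table. Not tested were kat2a, at 4.44 FPKM in GFP+ against 4.85 in GFP- cells, kat6b, at 2.23 FPKM in GFP+ against 5.01 in GFP- cells, and kat2b, under 1 FPKM in both fractions.

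PRC2 genes had the narrowest range of log2 ratios among families with at least 4 tested members, from -0.09 to 0.39. None was called, against 14.3% of all tested genes. The catalytic gene ezh2 had 59.3 FPKM in the GFP-positive and 58.9 in the GFP-negative fraction, and the core subunit gene eed had 39.6 FPKM in GFP+ against 38.9 in GFP- cells (q = 0.996 and 0.997 in the authors' deposited table). The copies suz12a and suz12b had 18.7 FPKM in GFP+ against 14.1 in GFP- cells and 56.2 FPKM in GFP+ against 60.1 in GFP- cells, so that their sums were 74.9 FPKM in GFP+ against 74.1 in GFP- cells. The median log2 ratio of the 4 tested genes was 0.02. The alternative catalytic gene ezh1 was not tested, at 1.04 FPKM in GFP+ against 0.825 in GFP- cells, and ezh2 made up 98.3% of their summed level in the GFP-positive and 98.6% in the GFP-negative fraction. The locus of eed holds 10 rows of the table, so its value depends on how reads were divided among them.

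Of 9 tested genes in the SETD and KMT2 families, 0 were called, against 14.3% of all tested genes. Lower values in GFP-positive cells were held by 46.9% of all tested genes, and families of 5 and 4 tested genes are too small to show a split. Of 5 tested SETD genes, 4 had a higher level in the GFP-positive fraction. The copies setd8a and setd8b, whose enzymes place a single methyl group on histone H4 and act in the cell cycle, had 55.1 FPKM in GFP+ against 46.4 in GFP- cells and 52.7 FPKM in GFP+ against 34.7 in GFP- cells (q = 0.795 and 0.549 in the authors' deposited table). The actin methyltransferase gene setd3 had 19.1 FPKM in GFP+ against 13.4 in GFP- cells, and setd2, which marks transcribed gene bodies, had 20.1 FPKM in GFP+ against 18.7 in GFP- cells. The locus of setd8b holds 12 rows of the table. In the other direction setd1a, a promoter methyltransferase gene, had 16.9 FPKM in GFP+ against 23.6 in GFP- cells. Of 4 tested genes of the KMT2 family, 3 had a lower level in the GFP-positive fraction. The largest of these differences was that of kmt2e, at 15.9 FPKM in GFP+ against 23.9 in GFP- cells (q = 0.455 in the authors' deposited table). The enhancer methyltransferase genes kmt2d and kmt2cb had 23.3 FPKM in GFP+ against 19.9 in GFP- cells and 7.99 FPKM in GFP+ against 11.5 in GFP- cells. The gene kmt2a, homologous to the human leukaemia gene, was not tested, at 3.31 FPKM in GFP+ against 6.42 in GFP- cells.

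Of 11 tested histone demethylase (KDM) genes, 0 were called, 9 had a lower level in the GFP-positive fraction, and the median log2 ratio was -0.48. Across all tested genes, 14.3% were called and 46.9% had a lower level in that fraction. At an unadjusted p under 0.05 in the authors' deposited table there were 3 KDM genes, all lower in the GFP-positive fraction. Of all tested genes, 23.9% were at that p in either direction and 11.8% were lower. The gene kdm1a encodes LSD1, which removes methyl groups from histone H3 lysine 4 with the CoREST complex. It had 39.3 FPKM in the GFP-positive and 79.7 in the GFP-negative fraction, a 2.03-fold lower level with an unadjusted p of 0.0129 and q = 0.0773 in the authors' deposited table. The gene kdm5bb, whose enzyme acts on the same lysine, had 6.13 FPKM in GFP+ against 13.6 in GFP- cells, with an unadjusted p of 0.0114 and q = 0.0706 in the authors' deposited table. Its copy kdm5ba had 12.2 FPKM in GFP+ against 13.2 in GFP- cells and kdm5c had 19.98 FPKM in GFP+ against 21.6 in GFP- cells, with q of 0.930 and 0.927 in the authors' deposited table. The third gene was kdm2bb, whose protein brings a Polycomb complex to unmethylated CpG islands. It had 6.401 FPKM in GFP+ against 14.96 in GFP- cells, with an unadjusted p of 0.0270 and q = 0.134 in the authors' deposited table, while its untested copy kdm2ba had 2.51 FPKM in GFP+ against 2.62 in GFP- cells.

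Demethylases of the Polycomb mark were uneven. The gene kdm6al had 34.8 FPKM in the GFP-positive and 91.9 in the GFP-negative fraction, a 2.64-fold difference that did not pass (q = 0.708 in the authors' deposited table). Its locus holds 3 rows of the table. Its relative kdm6a had 8.15 FPKM in GFP+ against 11.6 in GFP- cells, and kdm6bb had 13.2 FPKM in GFP+ against 11.4 in GFP- cells. The sum of these 3 genes was 56.2 FPKM in the GFP-positive and 115 in the GFP-negative fraction, and most of this gap is the kdm6al value. It leaves out a row now named KDM6B that the name rule does not take, at 41.3 FPKM in GFP+ against 54.3 in GFP- cells. The remaining tested demethylase genes were kdm2aa, at 23.2 FPKM in GFP+ against 35.0 in GFP- cells, kdm4b, at 11.4 FPKM in GFP+ against 16.3 in GFP- cells, and kdm7ab, at 11.8 FPKM in GFP+ against 10.7 in GFP- cells.

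**Figure D3:**
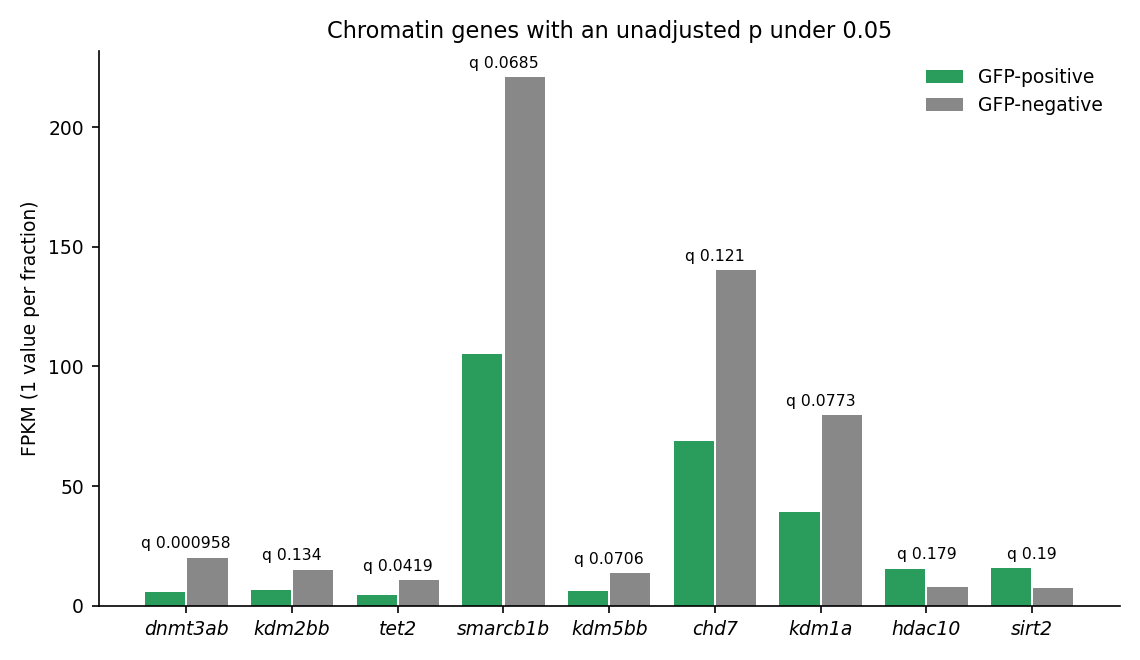
Level in FPKM (vertical axis, from 0) of the 9 chromatin genes with an unadjusted p under 0.05, in GFP-positive (left bar) and GFP-negative cells (right bar), with 1 value per fraction and so no error bars. The deposited q stands above each pair; 7 genes are lower in GFP-positive cells, of which dnmt3ab and tet2 pass 0.05, and hdac10 and sirt2 are higher without passing.

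Arginine methyltransferase genes had larger values in GFP-positive cells in 3 of 4 tested members, and 0 were called. Among all tested genes, 46.9% had a lower level in GFP-positive cells and 14.3% were called, and 4 genes are too few to show a difference. The main enzyme gene of the family, prmt1, was the most abundant member in GFP-positive cells, at 243 FPKM, against 227 FPKM in GFP-negative cells (q = 0.933 in the authors' deposited table). It supplied 81.0% of the summed PRMT level in the GFP-positive and 80.2% in the GFP-negative fraction. The ribosomal protein methyltransferase gene prmt3 had 12.03 FPKM in GFP+ against 7.15 in GFP- cells, prmt7 had 11.2 FPKM in GFP+ against 8.41 in GFP- cells and prmt5, which makes symmetric dimethylarginine, had 24.6 FPKM in GFP+ against 30.1 in GFP- cells. None of these had q under 0.432 in the authors' deposited table.

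Duplicated genes did not always share a ratio. Zebrafish keep many gene pairs from a genome duplication in the fish lineage, and 23 pairs of copies or close relatives were set side by side. Both copies were tested in 7 pairs. The sign of the ratio was the same in 5 of the 7 pairs and differed for smarcb1a with smarcb1b and for suz12a with suz12b. The copies brd3a and brd3b kept nearly the same proportion, with brd3b at 35.4% of the pair in the GFP-positive and 35.9% in the GFP-negative fraction. For kdm5ba and kdm5bb, the share of kdm5bb was 33.5% in the GFP-positive and 50.7% in the GFP-negative fraction. Copies of similar sequence can share reads, so the division within a pair is uncertain. The loci of brd3a (with wdr5) and kdm5ba also hold another row, so their values depend on how reads were divided. No test of these shares was possible from 1 value per fraction.

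**Figure D4:**
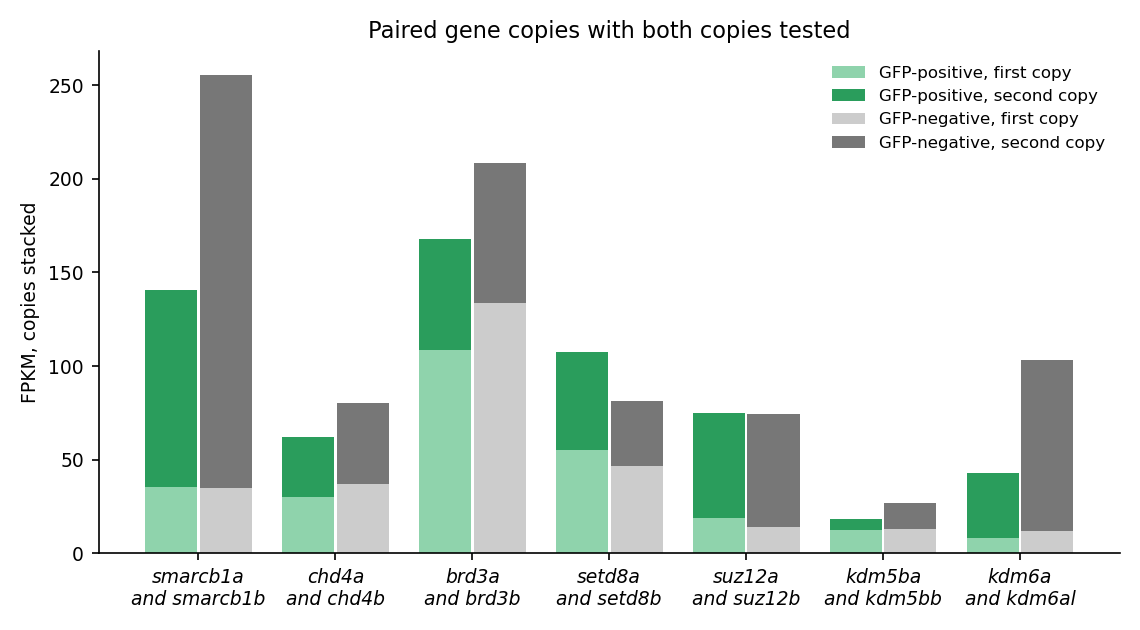
Stacked levels in FPKM (vertical axis, from 0) of the 7 gene pairs with both copies tested, in GFP-positive (left, green) and GFP-negative cells (right, grey), with the first-named copy below and the second above. In the smarcb1 pair the difference lies in smarcb1b, while smarcb1a stands at 35.5 FPKM in GFP+ against 34.7 in GFP- cells.

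Of the 120 members, 50 had too few alignments for a test, and the larger of their values ran from 0 to 8.20 FPKM with a median of 3.37 FPKM. For tested members this value ran from 8.02 to 257 FPKM. Among untested members 20 had a higher level in the GFP-positive fraction and 28 a lower one, and 2 rows, prmt8b and 1 of 2 rows named kmt2ba, were listed at 0 in both fractions. By the larger of the 2 values, the 4 highest were kdm8, setd6, chd1l and setd4. The hydroxylase gene kdm8 had 8.12 FPKM in GFP+ against 8.20 in GFP- cells, and the remodeller gene chd1l, which acts in DNA repair, had 7.43 FPKM in GFP+ against 6.61 in GFP- cells. The methyltransferase genes setd6 and setd4 had 7.90 FPKM in GFP+ against 5.65 in GFP- cells and 7.37 FPKM in GFP+ against 5.93 in GFP- cells. Lower in this order, setd7, another methyltransferase gene, had 7.07 FPKM in GFP+ against 7.03 in GFP- cells, and the tubulin deacetylase gene hdac6 had 4.38 FPKM in GFP+ against 3.98 in GFP- cells. On the log2(FPKM + 1) scale, 4 untested members were past 2-fold. These were smarcd3a and smarcd2, given above, the INO80 subunit gene ino80e, at 0.625 FPKM in the GFP-positive and 3.12 in the GFP-negative fraction, and the arginine methyltransferase gene prmt2, at 1.15 FPKM in GFP+ against 3.63 in GFP- cells. That scale shrinks the ratios of such low genes. By FPKM alone, further untested members were past 2-fold, among them dnmt3aa and kat6b (lower in GFP-positive cells) and smarca1 (higher).

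Partner subunits of the same complexes showed a like pattern of few calls. A list of 211 gene names, picked by known membership, found 153 in the table, and 110 of their 158 rows were tested. None was called higher and 2 were called lower in the authors' deposited table, against 14.3% of all tested genes called in either direction. A lower level in the GFP-positive fraction was held by 80 of 110, or 72.7%, against 46.9% of all tested genes. At an unadjusted p under 0.05 in the authors' deposited table there were 10, against 23.9% of all tested genes. Their median log2 ratio was -0.31, close to that of the members and lower than that of all tested genes. The called partners were phf21aa and mbd3b. The LSD1 complex reader gene phf21aa had 8.26 FPKM in the GFP-positive and 30.5 in the GFP-negative fraction, a 3.69-fold lower level with q = 0.00488 in the authors' deposited table. It shares its locus with another row. Its copy phf21ab had 8.54 FPKM in GFP+ against 16.4 in GFP- cells (q = 0.185 in the authors' deposited table). The CoREST scaffold genes of the same complex had opposite ratios, rcor1 at 25.2 FPKM in GFP+ against 20.9 in GFP- cells and rcor2 at 8.09 FPKM in GFP+ against 13.0 in GFP- cells, neither called. The NuRD gene mbd3b had 40.9 FPKM in GFP+ against 90.2 in GFP- cells, a 2.20-fold lower level with q = 0.0411 in the authors' deposited table. Its copy mbd3a had 43.5 FPKM in GFP+ against 60.4 in GFP- cells (q = 0.538 in the authors' deposited table), and the related mbd2, not tested, had 10.5 FPKM in GFP-positive cells and a listed value of 0 in the others.

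COMPASS complexes methylate histone H3 lysine 4 at promoters and enhancers, and Polycomb repressive complex 1 (PRC1) ubiquitinates histone H2A. By complex, SWI/SNF partners had a lower level in the GFP-positive fraction in 11 of 13 tested genes, COMPASS partners in 9 of 10 and PRC1 genes in 9 of 12, with 0 called in each. Across all tested genes, 46.9% had a lower level in that fraction and 14.3% were called. The lists of single complexes are small, and differences between them were not tested. At an unadjusted p under 0.05 in the authors' deposited table there were 3 of 19 genes in the SIN3, CoREST and NCoR list, 3 of 17 in the acetyltransferase list, 1 of 13 in the SWI/SNF list, 1 of 10 in the COMPASS list, 1 of 7 in the ISWI list and 1 of 7 in the NuRD list. There were 0 in the PRC1, PRC2, INO80, heterochromatin and DNA methylation lists. All 10 were lower in the GFP-positive fraction, and 11.8% of all tested genes were lower at that p. The DNA-binding SWI/SNF subunit gene arid1ab had 11.3 FPKM in GFP+ against 20.6 in GFP- cells (unadjusted p = 0.0359, q = 0.164 in the authors' deposited table). The COMPASS targeting gene cxxc1 had 9.22 FPKM in GFP+ against 24.5 in GFP- cells (q = 0.149 in the authors' deposited table), while the shared subunit gene dpy30 had 147 FPKM in GFP+ against 144 in GFP- cells. Acetyltransferase partners included ep300b, the gene of the coactivator p300, at 8.59 FPKM in GFP+ against 15.5 in GFP- cells (q = 0.154 in the authors' deposited table). The others at that p, named after their values were seen, were supt3h, a SAGA complex gene whose locus holds 2 rows, at 5.78 FPKM in GFP+ against 18.3 in GFP- cells (q = 0.143 in the authors' deposited table), and msl2a of the MSL complex, at 6.45 FPKM in GFP+ against 13.6 in GFP- cells (q = 0.105 in the authors' deposited table). Counts lower in GFP-positive cells were 6 of 7 for ISWI and 6 of 7 for NuRD partners, 3 of 6 for INO80, 2 of 3 for PRC2 and 2 of 2 for DNA methylation partners. They were 12 of 19 for SIN3, CoREST and NCoR genes and 13 of 17 for acetyltransferase partners. Genes of histone H3 lysine 9 methylation and heterochromatin were evenly divided, with 7 lower and 7 higher among 14 tested and 0 called. There the largest positive ratios were those of the methyltransferase gene suv39h1b, at 70.4 FPKM in the GFP-positive and 36.3 in the GFP-negative fraction, and of trim33, which is required for blood formation in zebrafish, at 120 FPKM in GFP+ against 67.2 in GFP- cells. Neither passed (q = 0.320 and 0.254 in the authors' deposited table), and the locus of suv39h1b holds 3 rows.

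**Figure D5:**
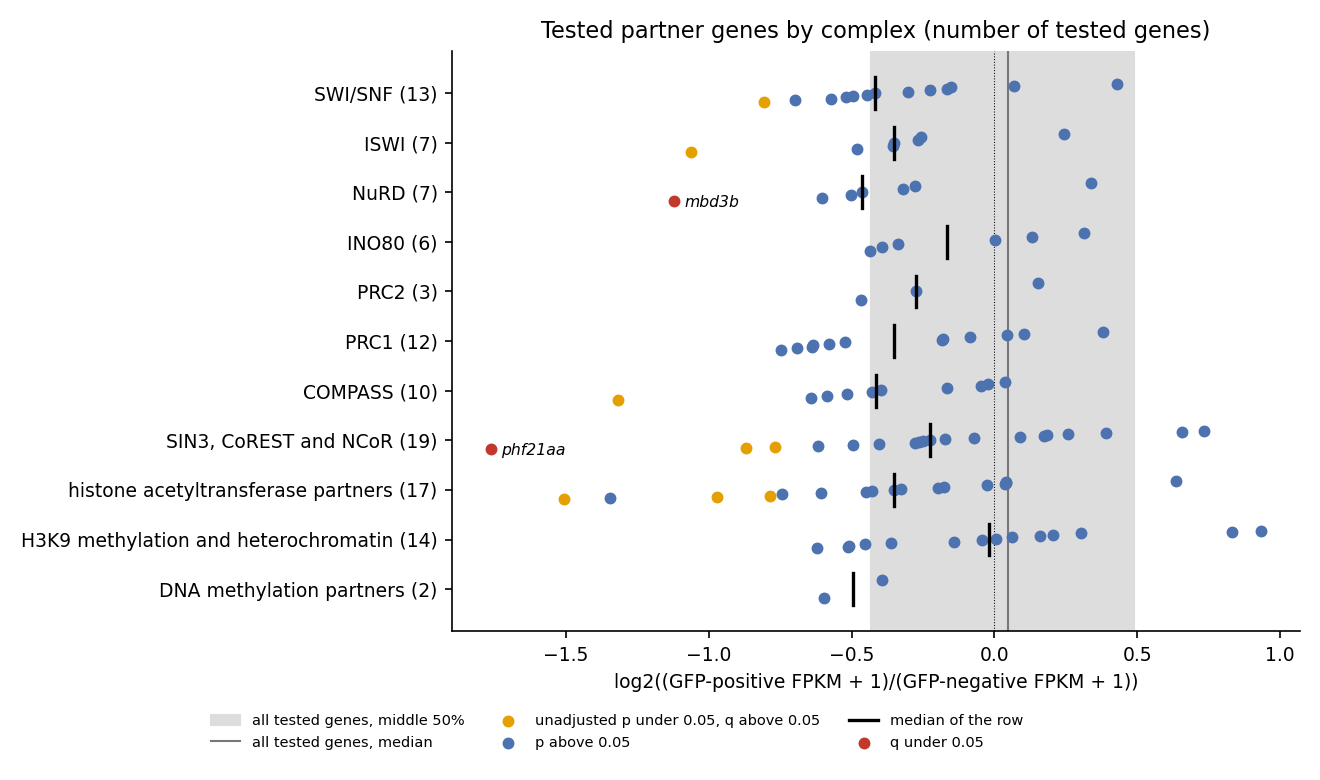
Ratio of GFP-positive to GFP-negative level on the log2(FPKM + 1) scale (horizontal axis) for the 110 tested partner genes, 1 point per gene, by complex (rows, with the number tested). Black bars are row medians, and the grey band and line are the middle 50% and the median of all tested genes; mbd3b and phf21aa carry the 2 calls.

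Proliferation genes, which are often high together with dnmt1, ezh2 and hdac1 in dividing cells, were measured beside them. Of 17 tested rows for 15 such genes, 1 was called higher and 0 lower, against 7.18% higher and 7.15% lower among all tested genes. The median log2 ratio was -0.19 for these rows and 0.05 over all tested genes. Their summed level was 1778 FPKM in the GFP-positive and 1869 in the GFP-negative fraction. The called gene was the mitotic kinase gene cdk1, with 127 FPKM in GFP+ against 52.9 in GFP- cells (q = 0.0243 in the authors' deposited table). The replication clamp gene pcna had 536 FPKM in GFP+ against 617 in GFP- cells (q = 0.845 in the authors' deposited table). The part of proliferation in the values of the chromatin genes was not tested.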

How the data were processed

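RNA was measured in 4 libraries, 2 of GFP-positive and 2 of GFP-negative cells. Per the submitters' processing notes, TopHat2 2.0.9, Cuffdiff 2.1.1 and the Zv9 build were used; settings were not given in these sources. The deposited table holds 1 FPKM value per gene and fraction, taken from the sample titles as the authors' estimate over both libraries. It also holds the deposited log2 ratio (GFP-negative over GFP-positive, sign turned here), a test statistic (the authors' score, not used), and the authors' p-value and q-value, which matched a Benjamini-Hochberg adjustment within 5.26e-07. Calls use that q, since no replicate test can be refitted from 1 value per fraction. Of 31716 genes, 7299 were tested, 24304 had too few alignments and 113 were LOWDATA. A pseudocount of 1 FPKM was added before log2.

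Coordinates are Cuffdiff loci, which overlapping genes share (29 members, 19 of them tested). Symbols of a reference table were found for 104 members by gene ID. The members and lists were chosen with earlier results of these data known. Named were all members called or at an unadjusted p under 0.05, each family's most abundant and most different members, gene copies, called and most abundant partners, and other members once; 1 member is not reported here by name. Partner names were picked by known membership. The code was tested on simulated data. Python 3.11.15 and pandas 2.3.3 were used. Alternatives covered thresholds, filters, pseudocounts, scaling, and shared names and loci.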

Additional observations from a re-analysis of the deposited data

How the results depend on the processing

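No paired analysis was possible because the table holds 1 value per gene and fraction, and for the same reason no library could be left out. Every alternative gave 0 members and 0 partners called higher. Most of these alternatives only drop genes from the same deposited calls, so a count of 0 could not rise in them. At q under 0.01, 1 member (dnmt3ab) and 1 partner were called lower, and with rows alone in their locus 1 partner was. Every other alternative gave 2 of each. The members' median log2 ratio of -0.29 stayed between -0.39 and -0.29 under other pseudocounts, scalings and filters, and was -0.19 when untested members of at least 1 FPKM were added. With members matched also by reference names, added after the values were seen, it was -0.34. The median over all tested genes changed sign to -0.046 after rescaling without globins and to -0.041 with untested genes. Medians of small families also changed sign. With untested members ISWI gave 0.10, with rows alone in their locus sirtuins gave 0.46, and after rescaling without globins the smarcad1 ratio was -0.071 and the PRC2 median was -0.079. Of 136 recomputed family medians, 122 moved by no more than 0.1, 10 moved further with the same sign and 4 changed sign. The cause was not tested. The 9 members at an unadjusted p under 0.05 kept their direction under each pseudocount and scaling tried. This could not have come out otherwise. A pseudocount added to both values cannot change a direction. The rescaling without globins was a log2 factor of -0.099, small beside the smallest of these ratios, 0.92 for hdac10. Depth is unknown, so no detection limit is given.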

Other observations

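The name rule leaves out chromatin genes that the table lists under older or clone names. By gene ID, 18 other rows carry a current reference name that fits the rule, of which 6 were tested and 0 were called in the authors' deposited table. Among them, the row now named kdm3b had 16.1 FPKM in the GFP-positive and 20.9 in the GFP-negative fraction, and a row now named KDM6B had 41.3 FPKM in GFP+ against 54.3 in GFP- cells. The acetyltransferase copies kat5a and kat5b had 15.9 FPKM in GFP+ against 18.9 in GFP- cells and 8.63 FPKM in GFP+ against 14.1 in GFP- cells. The row suv420h1, now KMT5B, had 19.2 FPKM in GFP+ against 25.04 in GFP- cells. All 6 tested rows had a lower level in the GFP-positive fraction, with q from 0.281 to 0.815 in the authors' deposited table. Across all tested genes, 46.9% had a lower level in that fraction and 14.3% were called. The gene of the maintenance methylation cofactor, uhrf1, was listed at 0 in both fractions in 2 rows, both on chromosome 22 and neither tested. The gene dnmt1, with whose protein that of uhrf1 acts, had 125 FPKM in the GFP-positive and 191 in the GFP-negative fraction. Whether reads were lost between the 2 uhrf1 rows was not tested, so their 0 values do not show that uhrf1 was silent.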
